A study of Mus musculus with 9 samples.

Results

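Lysosomal and progranulin pathway genes were followed in the hippocampus of 9 N4 Ube3a m-/p+ mice, of which 5 were treated with Ant-134 and 4 with the scrambled control Scr. The set held 42 genes, namely progranulin (Grn) with its partners, Apoe, the proteases, glycosidases, sulfatases and lipid hydrolases of the lysosome, its membrane proteins, its proton pump and the transcription factor Tfeb. All 42 were found by their symbols among the 54532 genes of the count table, and all 42 were among the 19782 genes that passed the filter on low counts. The set was built around Grn, which had been selected on its lower level in the Ant-134-treated mice of these same libraries. The values of the members in this treatment comparison are therefore given as a description. The intervals and threshold calls printed for members come from the fit to all genes and are no independent evidence for any member or for the set. The question they address is whether other genes of the same organelle differed alongside Grn.

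All mice of both groups carried a null maternal allele and an intact paternal allele of Ube3a, the ubiquitin ligase gene affected in Angelman syndrome, from the Ube3a tm1alb line, and had been backcrossed for 4 generations (N4) to the 129Sv/Ev strain. No wild-type mice are among these libraries, so every value below refers to Ube3a m-/p+ tissue. At postnatal day (P) 21 the mice received an intracerebroventricular (ICV) injection of 0.5 nmol Ant-134, a locked nucleic acid inhibitor (antimiR) of miR-134, or of Scr, an antimiR of scrambled sequence. Audiogenic stimuli were given at P22, P24 and P26, and the brain was taken 24 h after the last of them. In this protocol the study reported less severe seizures with Ant-134 and a tendency to better survival. The treatment groups may therefore also differ in seizure severity and survival, whose part in the values below was not tested. Each library came from the hippocampus on the injected side of a single saline-perfused mouse, with mRNA purified by its poly-A tail. The ratio of males to females was not recorded for these samples.

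Lysosomes are acidic organelles in which proteases, glycosidases and lipases break down material delivered by endocytosis, phagocytosis and autophagy. Progranulin is a secreted glycoprotein that reaches the lysosome through the sorting receptor sortilin or together with prosaposin, and it is cleaved there into granulins. In the brain it is made by microglia and neurons, and its partial loss in people causes frontotemporal dementia while its complete loss causes a neuronal ceroid lipofuscinosis. Many lysosomal genes share a promoter element that the transcription factor TFEB binds, which allows them to be regulated together.

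The libraries held between 28583298 and 41978113 counts, and the 42 members together took 0.748% to 0.828% of them. Across all genes, none passed the threshold of 0.05 after Benjamini-Hochberg adjustment in edgeR (smallest adjusted p = 0.0900). At an unadjusted p value below 0.05 in edgeR, 533 genes (2.69%) were lower and 294 genes (1.49%) were higher in Ant-134-treated mice. The study used that threshold in DESeq2 and reported more genes in both directions. Calls at that threshold in edgeR are the ones counted below, unless another fit is named. Ube3a, which no treatment targeted, lay between 85.6 and 100.4 CPM in the Ant-134 group and between 87.6 and 96.6 CPM in the Scr group. The row of Mir134 held 0 counts in every library, so the inhibition of miR-134 itself was not measured here. Choroid plexus markers varied most between libraries within a group, with summed levels from 73.2 to 2619 CPM, highest in Ant-134 replicate 1 and, among Scr mice, in replicate 3 at 2053 CPM.

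A microRNA pairs with a target through its seed, bases 2 to 8 from its 5′ end. The mature sequence of mmu-miR-134-5p from RefSeq (GRCm38.p6, chr12:109734145-109734166, plus strand) is shown with its seed in capitals, because it defines the sites searched here.
mmu-miR-134-5p: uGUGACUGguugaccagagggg

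Sites for this seed were searched in the longest annotated 3′ UTR of each gene as CAGTCAC (pairing with bases 2 to 8) or AGTCACA (bases 2 to 7 followed by A). The 2 overlap in 6 letters, and a match to both makes a site of 8 bases. Of the 42 members, 7 (16.7%) held a site, against 19.5% of 15267 tested genes with an annotated 3′ UTR. The members with a site were Asah1, Ctsc, Ctsd, Ctsl, Gusb, Ppt1 and Tmem106b. Each site is shown in a window of 24 bases with the match in capitals (GRCm38), to show where the searched letters occur in these 3′ UTRs. The longest 3′ UTR need not belong to the transcript most used in the hippocampus, and over all annotated 3′ UTRs 8 members (19%) and 20.6% of the tested genes held a site.
Asah1, chr8:41340671-41340677, minus strand: gcaataaaCAGTCACtgtcagata
Ctsc, chr7:88289538-88289544, plus strand: ggtgaaactAGTCACAttttacag
Ctsd, chr7:142376474-142376480, minus strand: ctcacacatAGTCACActcgctta
Ctsl, chr13:64362975-64362981, minus strand: tgtcaaaggAGTCACAgcgctgag
Gusb, chr5:129999223-129999229, minus strand: ggctttttCAGTCACtttgtggga
Ppt1, chr4:122858132-122858138, plus strand: gtacctagCAGTCACcccacaagc
Ppt1, chr4:122858206-122858212, plus strand: aacagaattAGTCACAcagggggg
Ppt1, chr4:122858355-122858362, plus strand: tgaactcaCAGTCACAgagatcac
Tmem106b, chr6:13085736-13085742, plus strand: ttccttagCAGTCACctgcattcg

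None of the members that were lower at the threshold carried a site in its longest 3′ UTR. The log2 fold changes of the 7 genes with a site were -0.20 for Ctsc, -0.12 for Asah1, -0.07 for Ctsl, -0.06 for Gusb, 0.0030 for Ppt1, 0.02 for Ctsd and 0.06 for Tmem106b. None of the 7 was called in either direction, and Ppt1, the palmitoyl-protein thioesterase gene with 3 sites including the only one of 8 bases, had almost equal group means of 104.9 CPM and 104.7 CPM.

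The promoter element was searched as CACGTG, the core that TFEB binds, and as the longer TCACGTGA, which contains it. Both read the same on either strand. The windows were the RefSeq promoters (GRCm38.p6) from 250 bases before to 50 bases after a start, of which 43 belonged to 35 of the 42 members. CACGTG occurred for 12 of these 35 genes (34.3%), for 15 of 69 other lysosomal genes (21.7%) and for 1416 of 13063 tested genes (10.8%). TCACGTGA occurred for 6 of the 35 members (17.1%), for 9 of the 69 other lysosomal genes (13%) and for 1.88% of the tested genes. Promoters are shown here for Grn, around which the set was built, for Lgmn and Naglu, which were lower at the threshold and hold the element, and for Lamp1 and Mcoln1, which hold it repeatedly and were not called. Each sequence is the 250 bases before the annotated start, 5′ to 3′, with CACGTG in capitals. The Lgmn window belongs to the second of its RefSeq starts, which lies inside the gene. The RefSeq starts of Grn, Naglu and Mcoln1 also lie inside the gene as bounded in the count table. Part of each of these windows is therefore inside the gene.
Grn, chr11:102430257-102430506, plus strand: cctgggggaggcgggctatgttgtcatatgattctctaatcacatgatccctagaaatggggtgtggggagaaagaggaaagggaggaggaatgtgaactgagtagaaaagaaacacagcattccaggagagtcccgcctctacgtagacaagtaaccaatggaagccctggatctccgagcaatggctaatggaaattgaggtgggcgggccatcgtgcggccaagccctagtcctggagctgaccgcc
Lgmn, chr12:102439093-102439342, minus strand: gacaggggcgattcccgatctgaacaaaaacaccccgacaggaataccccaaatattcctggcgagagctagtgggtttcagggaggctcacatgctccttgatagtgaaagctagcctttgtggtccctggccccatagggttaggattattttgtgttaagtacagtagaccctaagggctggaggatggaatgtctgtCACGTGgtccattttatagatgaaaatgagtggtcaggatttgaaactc
Naglu, chr11:101069844-101070093, plus strand: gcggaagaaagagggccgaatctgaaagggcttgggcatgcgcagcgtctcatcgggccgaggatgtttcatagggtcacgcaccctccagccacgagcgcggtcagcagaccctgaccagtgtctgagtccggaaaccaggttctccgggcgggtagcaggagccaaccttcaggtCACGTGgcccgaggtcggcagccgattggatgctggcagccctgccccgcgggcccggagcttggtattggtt
Lamp1, chr8:13158911-13159160, plus strand: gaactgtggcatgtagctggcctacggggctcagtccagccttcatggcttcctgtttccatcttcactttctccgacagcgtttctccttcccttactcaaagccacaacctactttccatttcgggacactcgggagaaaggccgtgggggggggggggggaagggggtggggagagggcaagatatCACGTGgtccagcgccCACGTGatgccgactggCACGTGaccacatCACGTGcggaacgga
Mcoln1, chr8:3500269-3500518, plus strand: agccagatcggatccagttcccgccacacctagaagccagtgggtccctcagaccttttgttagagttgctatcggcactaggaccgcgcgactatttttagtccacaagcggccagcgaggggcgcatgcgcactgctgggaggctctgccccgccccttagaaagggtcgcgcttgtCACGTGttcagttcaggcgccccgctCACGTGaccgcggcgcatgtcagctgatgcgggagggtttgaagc

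The Lamp1 promoter held 4 copies, between 61 and 15 bases before the start, and the Mcoln1 promoter held 2, at 71 and 45 bases before it. Naglu held a single copy 73 bases before its start and Lgmn a single copy 49 bases before the inner start, while its outer promoter held none. The letters were found in no promoter window of Grn or Man2b1. For Grn most of the window lies inside the gene as bounded in the count table, and bases further upstream were not searched. Ctsh, also lower at the threshold, was not among the 35 genes searched. The other members with the core element were Atp6v0d1, Cln3, Ctsa, Ctsd, Ctsl, Gaa, Gla and Glb1, none of which was called. Presence of these letters is a description of the window and not a measurement of binding.

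Levels of the members spanned 3 orders of magnitude on the FPKM scale, which divides counts by gene length and so allows genes to be compared. Apoe, the main lipid carrier of the brain, was highest at a mean of 974 FPKM over the 9 hippocampi, followed by Psap at 559 FPKM. Atp6v0d1, Lamp1 and Atp6ap1 came next at 120.7, 113 and 101 FPKM, and the ranges of Atp6v0d1 (114 to 127 FPKM) and Lamp1 (107 to 119 FPKM) overlapped. Ctsb and Gaa both had a mean near 82 FPKM (82.5 and 82.1), and Sort1 and Ctsd both had 71 FPKM (71.0 and 70.9), so neither pair can be ordered beyond its spread. Grn ranked 16th at 23.1 FPKM, between Tmem106b at 24.7 FPKM and Scarb2 at 22.4 FPKM, whose ranges overlapped with that of Grn (20.8 to 25.6 FPKM). Tfeb, Mfsd8, Manba and Gpnmb were the lowest, with means of 2.54, 2.18, 1.30 and 0.860 FPKM. The deepest member count in a library was 97549 (Apoe) and the shallowest 103 (Gpnmb).

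**Figure D1:**
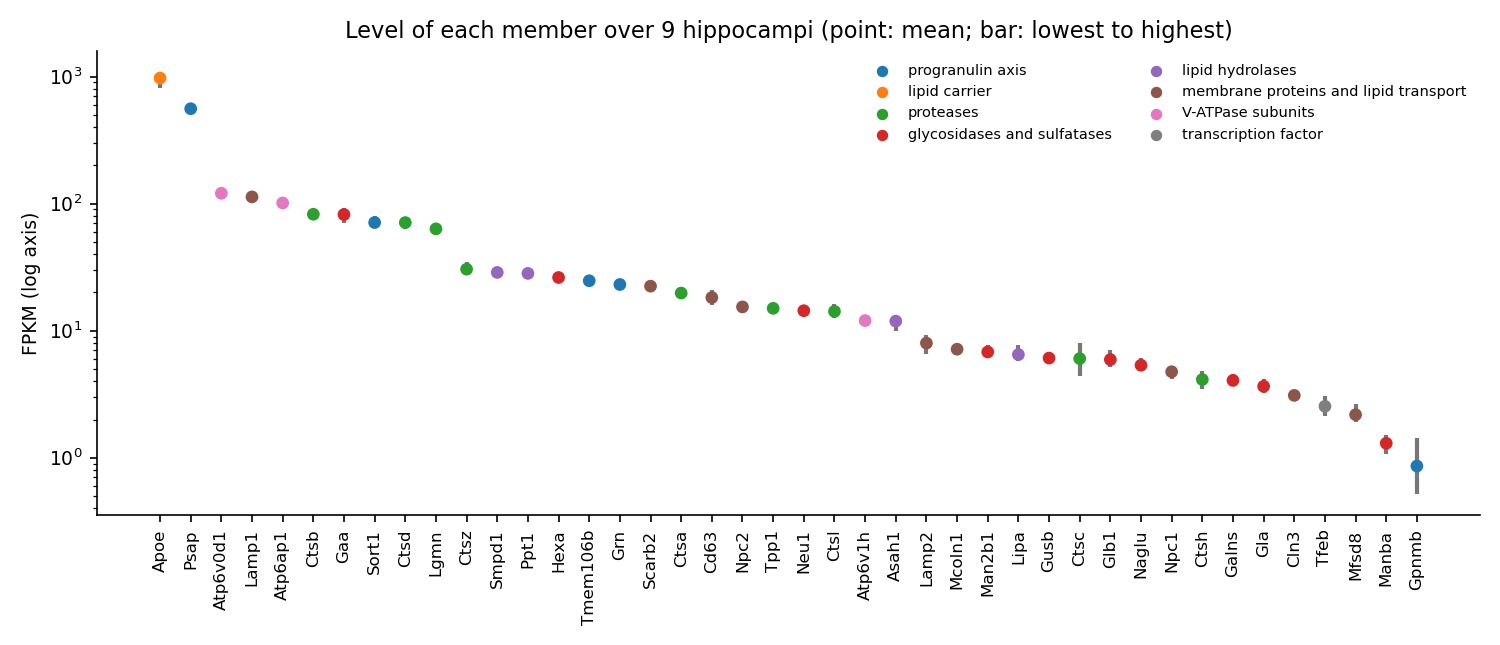
FPKM of the 42 members (log axis) in order of their mean over 9 hippocampi of both groups. Points are means, bars run from the lowest to the highest hippocampus, and colours mark the role. Apoe and Psap stand above 500 FPKM, Grn lies in the middle at 23.1 FPKM and Gpnmb is lowest at 0.860 FPKM with the widest relative range.

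Progranulin mRNA was lower in every Ant-134-treated mouse than in any Scr mouse, whereas the genes for its carriers and its lysosomal partner TMEM106B were not. Grn measured 79.3, 77.1, 73.1, 74.8 and 77.1 CPM in Ant-134 replicates 1 to 5 and 87.4, 85.9, 84.8 and 89.8 CPM in Scr replicates 1 to 4. The groups did not overlap. On the log2 scale Grn (chr11:102430315-102437048, plus strand) fell by 0.19 ± 0.040 (SE, n = 5 and 4), or 12.3%. This is the difference that the set was chosen for. Across the table every Ant-134 hippocampus lay below every Scr hippocampus for 0.895% of genes and above for 0.647%.

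Sort1 encodes sortilin, the receptor that carries progranulin to the lysosome. It measured 557, 546, 548, 610.4 and 494 CPM with Ant-134 and 547, 502, 509 and 569.8 CPM with Scr. Both the highest and the lowest of the 9 values were in the Ant-134 group, and the log2 fold change was 0.05 with a 95% interval from -0.07 to 0.18.

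Psap encodes prosaposin, the precursor of the saposins that activate sphingolipid hydrolases, and a second route for progranulin. Its levels were 1590, 1560, 1566, 1447 and 1638 CPM with Ant-134 and 1468, 1559, 1552 and 1554 CPM with Scr. Ant-134 replicate 4 and Scr replicate 1 were low and the other 7 mice lay between 1552 and 1638 CPM. The log2 fold change was 0.02, with an interval from -0.07 to 0.12.

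Tmem106b, which encodes a lysosomal membrane protein whose variants modify progranulin-linked dementia, measured 173, 176, 173, 186 and 173 CPM with Ant-134 and 171, 167, 164 and 175 CPM with Scr. The groups overlapped at the highest Scr mouse, and the log2 fold change of 0.06 had an interval from -0.03 to 0.15. Gpnmb, a transmembrane glycoprotein gene induced in phagocytes under lysosomal stress, was near the lower limit of the set at 9.45, 4.37, 4.70, 5.73 and 3.41 CPM with Ant-134 and 5.58, 6.62, 6.48 and 4.60 CPM with Scr. Ant-134 replicate 1, the library with the highest choroid plexus markers, was above all others. The log2 fold change of Gpnmb was -0.07 with an interval from -0.66 to 0.51, and without that replicate it was -0.36 and passed the threshold.

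Apoe encodes apolipoprotein E, a lipid carrier made by astrocytes and microglia. It measured 2046, 2042, 2354, 1775 and 2178 CPM with Ant-134 and 2136, 2306, 2209 and 1874 CPM with Scr. The Ant-134 group held both the highest and the lowest mouse, and the log2 fold change was -0.04 ± 0.078 (SE).

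**Figure D2:**
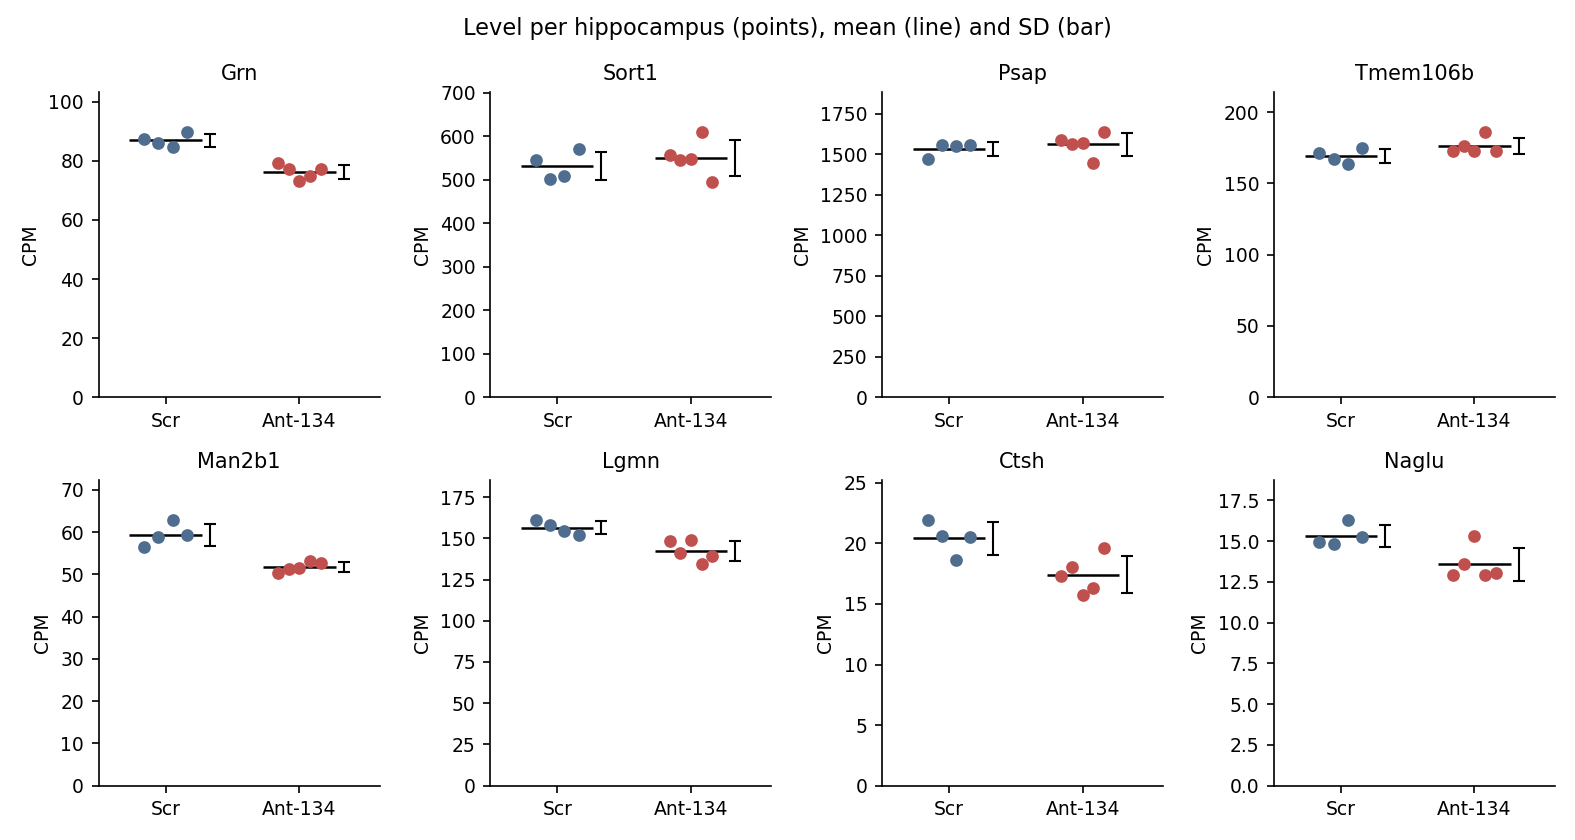
CPM of 8 members in each hippocampus, with the group mean as a line and the SD as a bar. Grn, Man2b1 and Lgmn show no overlap between the 4 Scr and the 5 Ant-134 mice, Ctsh and Naglu overlap by a single Ant-134 mouse, and Sort1, Psap and Tmem106b overlap throughout or at the top of the Scr range.

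Of the 42 members, 5 (11.9%) were lower at the threshold and 0 were higher. These were Grn, Man2b1, Lgmn, Ctsh and Naglu, and none passed adjustment over all 19782 genes (smallest adjusted p among members 0.522). Nothing is read from the comparison with the 2.69% of all genes, since Grn defined the set. Without Ant-134 replicate 1 the members called were 10, with Gpnmb, Ctsz, Lamp2, Npc1 and Npc2 added among the lower ones, Mfsd8 among the higher ones and Naglu lost. Without Scr replicate 2 they were 8, with Asah1, Npc1 and Mfsd8 added. The share of all genes called is given only for the fit on all mice, so nothing is read from these changes in number.

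Among the 9 proteases, 8 log2 fold changes were below 0 (6 to 9 over the alternatives) and 2 were called, both lower, beside 48.8% below 0 and 2.69% called lower over all genes. Nothing is read from these counts, since the set was chosen on this comparison. Lgmn encodes legumain, the asparaginyl endopeptidase that matures several cathepsins and also cleaves progranulin. Its levels were 148, 141, 149, 134 and 139 CPM with Ant-134 and 161, 158, 155 and 152 CPM with Scr. The groups did not overlap, and Lgmn fell by 0.14 ± 0.042 (SE) on the log2 scale, or 9.03%.

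Ctsh encodes cathepsin H, an aminopeptidase. It measured 17.3, 18.1, 15.7, 16.3 and 19.6 CPM with Ant-134 and 21.9, 20.6, 18.6 and 20.6 CPM with Scr. Ant-134 replicate 5 lay above Scr replicate 3, and the other 4 Ant-134 mice lay below all Scr mice. With a fall of 0.23 ± 0.076 (SE) on the log2 scale, or 14.7%, Ctsh had the largest absolute log2 fold change of the 42 members.

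Ctsc encodes cathepsin C, which activates granule proteases. Its values of 36.2, 36.6, 25.6, 37.0 and 30.2 CPM with Ant-134 and 46.7, 41.5, 31.0 and 33.6 CPM with Scr were spread widely in both groups. The log2 fold change was -0.20 with an interval from -0.53 to 0.13, and Ctsc was not called. It moved with single mice, to -0.098 without Scr replicate 1 and -0.29 without Scr replicate 3. Ctsz, Ctsl and Ctsa, which encode cathepsins Z, L and A, had log2 fold changes of -0.11, -0.07 and -0.06. For Ctsd and Ctsb, which encode the abundant cathepsins D and B, and for Tpp1, tripeptidyl peptidase, the values were 0.02, -0.0060 and -0.0091.

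The 10 glycosidases and sulfatases were evenly divided, with 5 log2 fold changes below and 5 above 0, and 2 were called, both lower, where 2.69% of all genes were. Man2b1 encodes lysosomal alpha-mannosidase, which trims N-linked glycans. It measured 50.3, 51.2, 51.5, 53.2 and 52.6 CPM with Ant-134 and 56.5, 58.8, 62.8 and 59.3 CPM with Scr. The groups did not overlap and the Ant-134 mice were close together (CV 2.23%), with a fall of 0.20 ± 0.045 (SE) on the log2 scale, or 12.8%.

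Naglu encodes alpha-N-acetylglucosaminidase of heparan sulfate breakdown, the enzyme missing in a form of Sanfilippo syndrome. Its levels were 12.9, 13.6, 15.3, 12.9 and 13.04 CPM with Ant-134 and 15.0, 14.8, 16.3 and 15.3 CPM with Scr. Ant-134 replicate 3 lay inside the Scr range and the other 4 below it. The fall was 0.18 ± 0.074 (SE) on the log2 scale, or 11.5%, and the call was lost without any 1 of Ant-134 replicates 1, 2, 4 and 5 or Scr replicates 3 and 4.

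Of the other glycosidases and sulfatases, Galns, Gusb and Gla had log2 fold changes of -0.11, -0.06 and -0.05. Hexa, the alpha subunit of beta-hexosaminidase, Neu1, sialidase, Gaa, acid alpha-glucosidase, Glb1, beta-galactosidase, and Manba, beta-mannosidase, had values of 0.01, 0.03, 0.04, 0.09 and 0.12. All 8 overlapped between groups, and the mannosidase genes Man2b1 and Manba lay on opposite sides of 0.

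Among the 4 lipid hydrolases none was called in edgeR on all mice with the filter on low counts. Asah1, acid ceramidase, measured 38.8, 41.1, 34.1, 41.0 and 40.7 CPM with Ant-134 and 42.1, 40.7, 43.3 and 44.5 CPM with Scr. Only Ant-134 replicate 2 and replicate 4 reached the Scr range, and the log2 fold change of -0.12 had an interval from -0.25 to 0.0058. Asah1 passed the threshold in edgeR with no filter and without Ant-134 replicate 2, Ant-134 replicate 4 or Scr replicate 2. Smpd1, acid sphingomyelinase, Lipa, lysosomal acid lipase, and Ppt1 had log2 fold changes between -0.0044 and 0.0030, with standard errors from 0.048 to 0.092.

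None of the 9 membrane and lipid transport genes was called in that same fit, and 6 of their log2 fold changes were below 0. Mfsd8, a transporter gene mutated in a neuronal ceroid lipofuscinosis, was the highest of all 42 members at 0.16 ± 0.077 (SE). Its levels were 19.9, 21.1, 21.2, 25.4 and 21.3 CPM with Ant-134 and 19.0, 21.4, 18.2 and 19.1 CPM with Scr. Ant-134 replicate 4 stood above the rest and Scr replicate 2 lay among the Ant-134 mice. Mfsd8 passed the threshold in DESeq2 without a filter (log2 fold change 0.17), with DESeq2 size factors or no filter in edgeR, and without Ant-134 replicate 1 or Scr replicate 2. The study, which used DESeq2, listed Mfsd8 among its upregulated genes associated with epilepsy. The cholesterol exporters Npc1 and Npc2 had log2 fold changes of -0.12 and -0.06, and the structural membrane proteins Lamp2 and Lamp1 had -0.12 and -0.03. Cd63, a tetraspanin, and Scarb2, the receptor that delivers glucocerebrosidase, had -0.05 and -0.01. Cln3 and Mcoln1, the calcium channel of the lysosome, had 0.01 and 0.03.

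The V-ATPase acidifies the lysosome. Its 3 member genes Atp6ap1, Atp6v1h and Atp6v0d1 had log2 fold changes of 0.02, 0.02 and 0.04, and the widest bounds of their intervals were -0.06 and 0.12. Atp6v1h, for example, measured 120.4, 120.9, 118, 119 and 117 CPM with Ant-134 and 112, 121, 115 and 121 CPM with Scr, so the groups overlapped. Tfeb itself lay between 12.1 and 16.3 CPM with Ant-134 and between 12.8 and 17.5 CPM with Scr. The log2 fold change of Tfeb was -0.12 with an interval from -0.34 to 0.09.

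**Figure D3:**
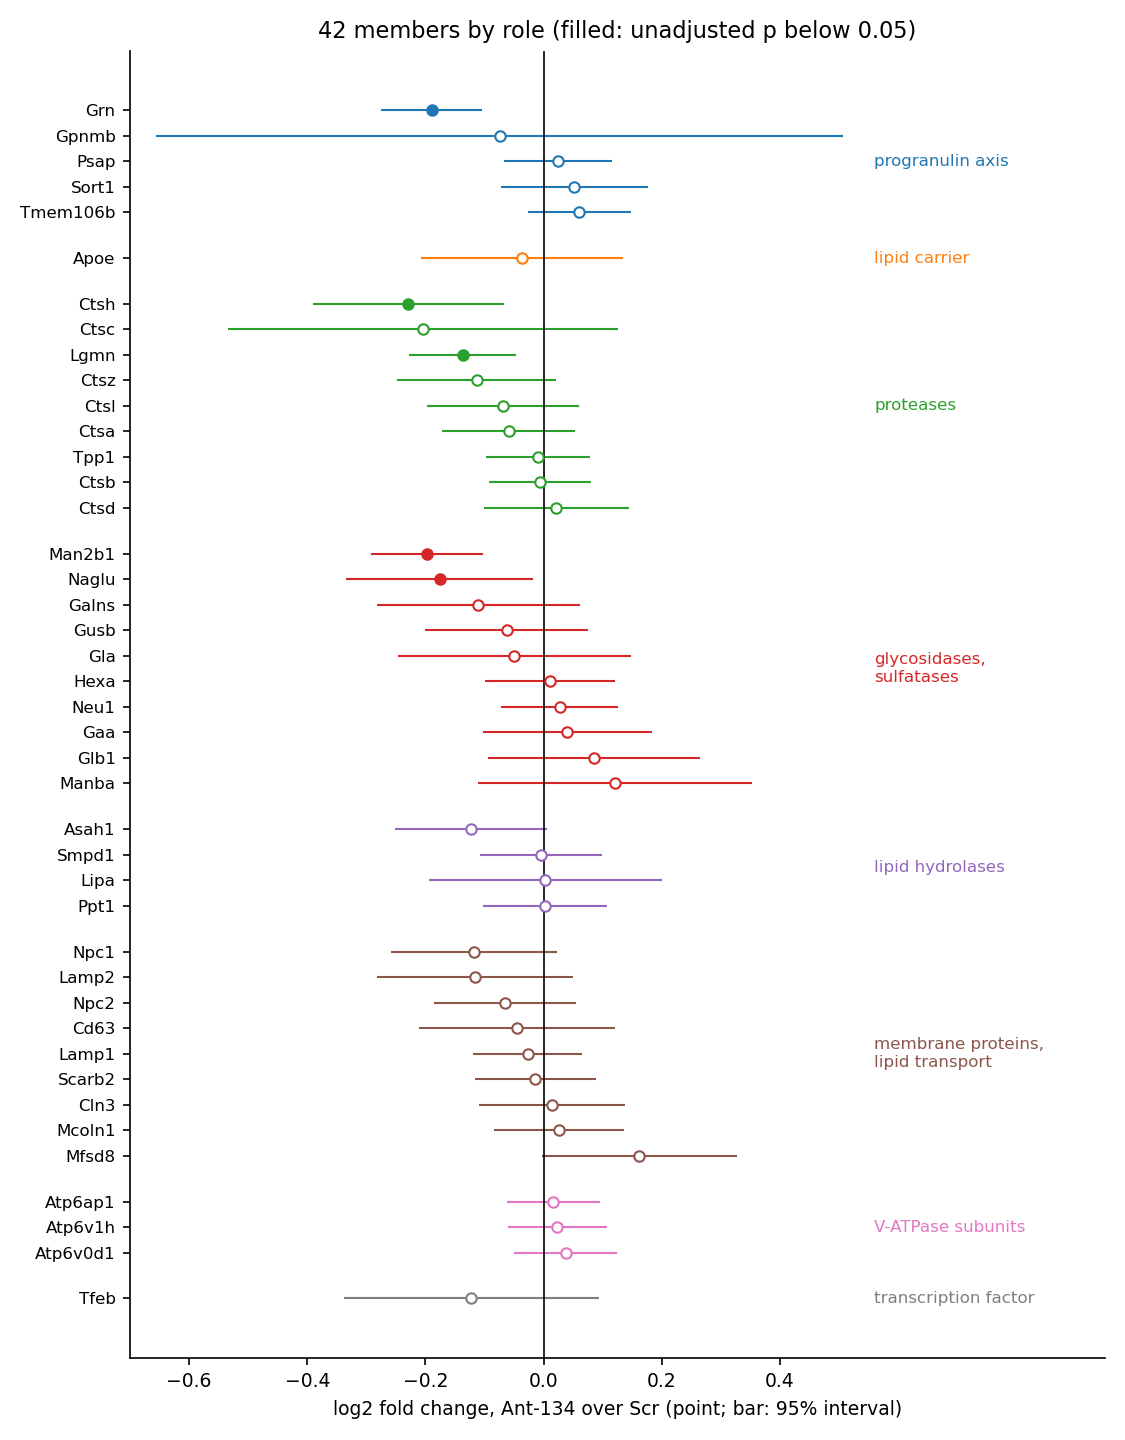
Log2 fold change of Ant-134 over Scr for the 42 members, grouped by role, with 95% intervals from edgeR. Filled points are the 5 members at an unadjusted p value below 0.05, all left of 0, and the 3 V-ATPase subunits lie just right of 0.

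Of all 42 log2 fold changes 25 (59.5%) were below 0 and 17 above it, and their median was -0.020, beside a median of 0.0026 and 48.8% below 0 over all genes tested. For 3 members (Grn, Man2b1 and Lgmn) every Ant-134 mouse was below every Scr mouse, and for 0 members every Ant-134 mouse was above, beside 0.895% and 0.647% of all genes tested. Without Grn the median was -0.014. The 37 members that were not called had a median of -0.0060, with 20 below and 17 above 0. Relative to the Scr mean, the median log2 level of the 5 called members was -0.24, -0.17, -0.20, -0.22 and -0.17 in Ant-134 replicates 1 to 5. The same median over the other 37 members was 0.03, 0.0041, -0.04, -0.05 and -0.02 in those mice and between -0.01 and 0.02 in the Scr mice. Both splits were decided by this same comparison, so these medians describe the mice and support nothing further.

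A further 92 lysosomal genes that are not in the set were listed by function, and 90 of them were tested. Mcoln2 and Mcoln3, with at most 15 counts in any library, were not. In this list 46 log2 fold changes were below 0 and 44 above, with a median of -0.0033. At the threshold 4 genes (4.44%) were lower and 1 was higher, beside 2.69% lower and 1.49% higher over all genes tested. For none did the adjusted p of edgeR's quasi-likelihood test fall below 0.465. Without Ant-134 replicate 1 the genes called were 10, all lower, and without Ant-134 replicate 3 or Scr replicate 3 they were 3, also all lower. No share of all genes called is given for these fits, so nothing is read from the changes.

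Pld4, Laptm5 and Acp5 were among the lower genes of this second list. Pld4, a lysosomal exonuclease gene of phagocytes, measured 15.4, 18.3, 14.4, 18.6 and 17.9 CPM with Ant-134 and 24.8, 22.3, 21.4 and 22.1 CPM with Scr. The groups did not overlap, which in this direction held for 0.895% of all genes tested. Pld4 fell by 0.42 ± 0.083 (SE) on the log2 scale (edgeR, adjusted p = 0.465). Laptm5, a lysosomal membrane protein gene of blood-derived and microglial cells, fell by 0.15 ± 0.058 (SE) on the log2 scale (edgeR, adjusted p = 0.998). Acp5, acid phosphatase 5, at 17 to 52 counts per library, fell by 0.60 ± 0.26 (SE) on the log2 scale (edgeR, adjusted p = 0.998). Pld4 was called in all 9 fits that left out a single mouse, Laptm5 in 7 (lost without Scr replicate 1 or 2) and Acp5 in 4 (lost without Ant-134 replicate 3, 4 or 5 or Scr replicate 1 or 3).

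In the other direction Laptm4b, a lysosomal and endosomal membrane protein gene, rose by 0.12 ± 0.055 (SE) on the log2 scale (edgeR, adjusted p = 0.998). Its levels were 71.9, 61.2, 67.8, 62.2 and 60.4 CPM with Ant-134 and 59.5, 58.4, 58.2 and 62.2 CPM with Scr, with overlap at Scr replicate 4. The call was lost under 12 of 20 alternatives, among them those without Ant-134 replicate 1 or 3 or Scr replicate 1, 2 or 3. The next genes above 0 were Lamp5 at 0.18 ± 0.099 (SE), Atp6v0e2 at 0.06 ± 0.038 (SE), Atp6v1d at 0.07 ± 0.042 (SE) and Atp6v0b at 0.07 ± 0.045 (SE), none of them called in edgeR on all mice with the filter on low counts. Lamp5 ranged from 0.09 without Scr replicate 2 to 0.27 without Scr replicate 1, where it passed the threshold, as it did with no filter, and Atp6v1d passed it without Scr replicate 4. Atp6v0e2 lay at 377 to 401 CPM with Ant-134 and 364 to 374 CPM with Scr. It was the single gene of the list in which every Ant-134 mouse was above every Scr mouse, beside 0.647% of all genes tested.

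The V-ATPase genes of both lists lay close together. Of 18 subunits, 16 had a log2 fold change above 0 and the remaining Atp6v1b2 and Atp6v0a2 had -0.01 and -0.0019. The median of the 18 was 0.03, the highest was 0.07 and none was called in edgeR. In DESeq2 without a filter and in each limma fit 1 subunit was called, and in edgeR 2 were called without Ant-134 replicate 4 and 1 without Scr replicate 4. The number above 0 was 12 without Scr replicate 1 and 18 without Scr replicate 4, so it moved with single control mice. The 9 proteases outside the set had a median of -0.13, with none called, beside -0.07 for the 9 in the set.

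**Figure D4:**
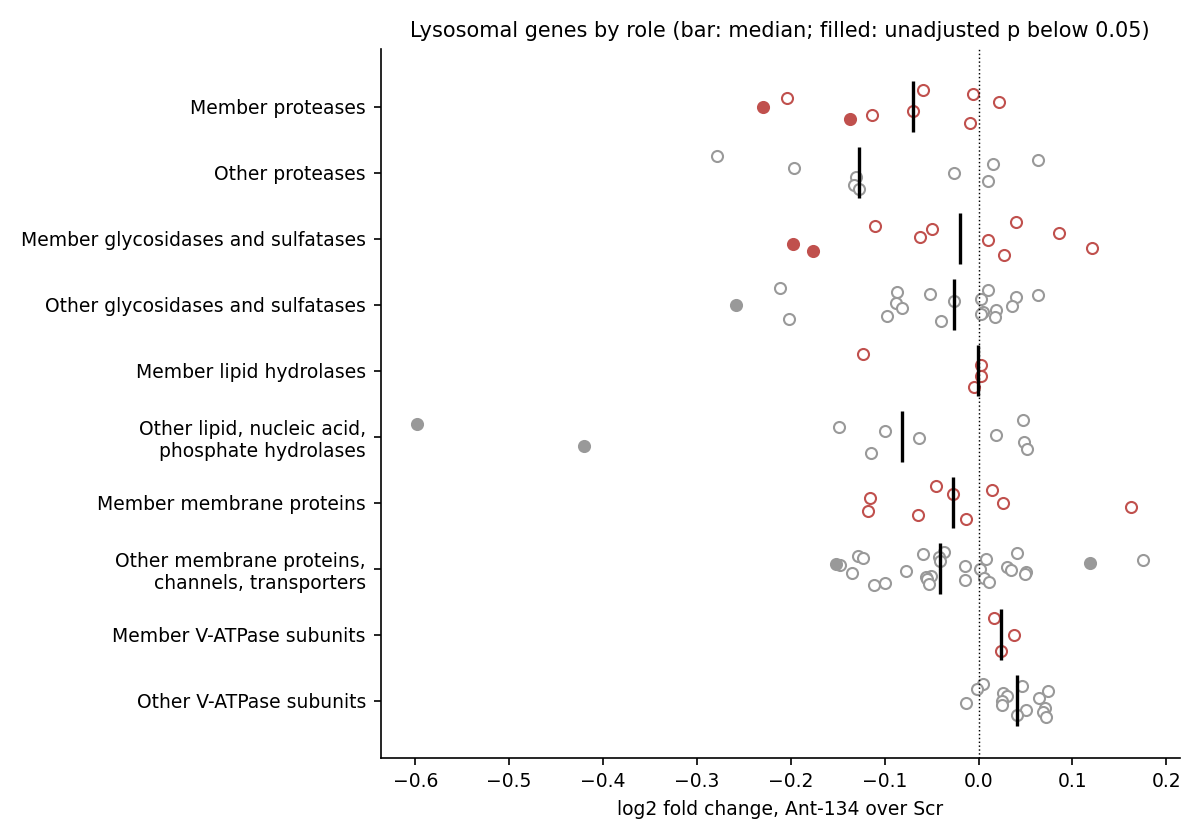
Log2 fold change of Ant-134 over Scr for members (red) and other lysosomal genes (grey) of the same role. Each point is a gene, filled where the unadjusted p value was below 0.05, and black bars are medians. Proteases of both lists have medians below 0 (-0.07 and -0.13) and V-ATPase subunits of both lists have medians above 0 (0.02 and 0.04).

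Several of the lower genes, among them Grn, Ctsh, Lgmn, Pld4 and Laptm5, are known to be abundant in microglia, so the level of microglial markers was set beside them. These genes were named because they were lower. Apoe, which microglia also make, had a log2 fold change of -0.04 and was not called. The 23 microglial markers summed to 554 to 598 CPM in Ant-134-treated mice and to 609 to 709 CPM in Scr mice, with no overlap. All 23 log2 fold changes were below 0, with a median of -0.19 and 8 called lower, beside 48.8% below 0 and 2.69% called lower over all genes. None of the markers was at 0 in these hippocampi. Cx3cr1, P2ry12 and Tmem119 had log2 fold changes of -0.12, -0.15 and -0.19, none of them called. Adgre1, which encodes F4/80, was lower by 0.91 and had the smallest adjusted p of the whole table (0.0900 in edgeR), and without it the other 22 markers summed to 546 to 588 CPM and 595 to 694 CPM. The part of these markers in the lower level of Grn and the other genes was not tested. In tissue homogenate fewer cells of a type and less RNA per cell cannot be told apart.

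Among the markers of other cells, all 10 of meningeal fibroblasts were below 0 (median log2 fold change -0.48, 7 called), with summed levels of 119 to 212 CPM with Ant-134 and 179.5 to 246 CPM with Scr. The 9 endothelial markers were all below 0 (1 called), summing to 233 to 276 CPM with Ant-134 and 247 to 323 CPM with Scr. The 9 border macrophage markers were divided (5 below 0, 2 called lower), at 33.4 to 41.3 CPM and 35.5 to 49.7 CPM. Of the 9 neuronal markers, 8 were above 0 (2 called higher), with sums of 6078 to 6700 CPM with Ant-134 and 5971 to 6344 CPM with Scr, and 7 of 9 markers of hippocampal principal neurons were above 0 with none called. Astrocyte sums of 5460 to 6357 CPM and 5553 to 6643 CPM overlapped, as did oligodendrocyte sums of 7594 to 12840 CPM and 9583 to 10330 CPM. The choroid plexus list overlapped as well, with 5 of 9 genes above 0. Over all genes tested 48.8% were below 0, 2.69% were called lower and 1.49% higher. None of these marker lists had a marker at 0 in all hippocampi, and their part in the members' values was not tested.

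**Figure D5:**
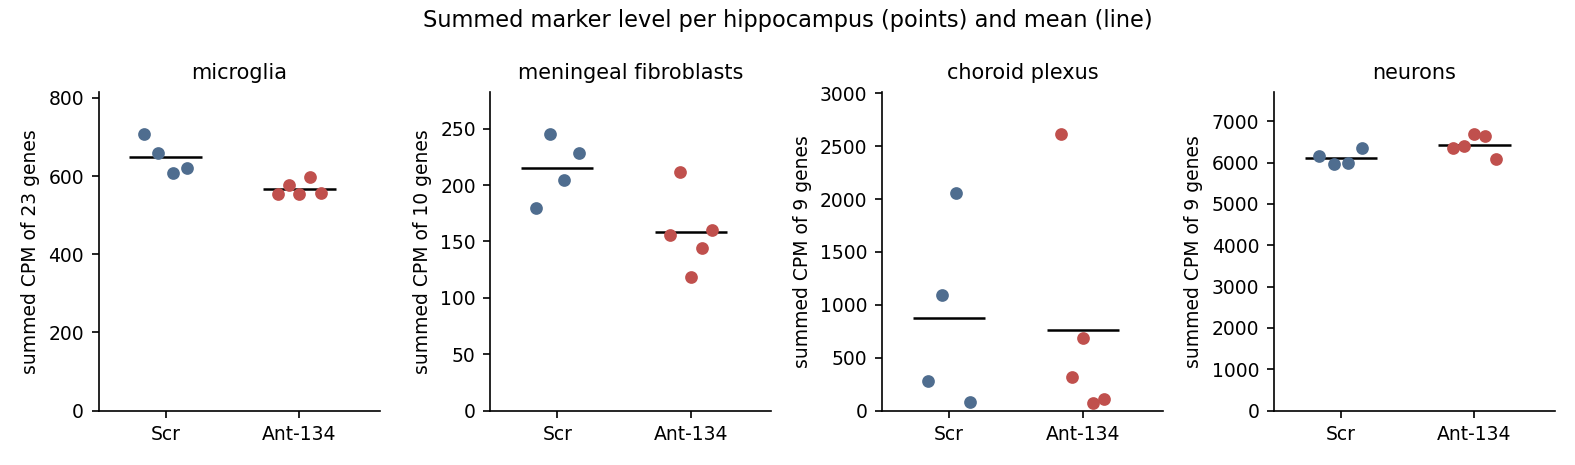
Summed CPM of microglial, meningeal fibroblast, choroid plexus and neuronal markers in each hippocampus, with the group mean as a line. The microglial sums of the 5 Ant-134 mice (554 to 598 CPM) lie below those of the 4 Scr mice (609 to 709 CPM), and the choroid plexus sums range from 73.2 to 2619 CPM without regard to group.

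When Ant-134 replicate 1 and Scr replicate 3, the mice with the highest choroid plexus markers in their groups, were both left out, 7 members were lower and 0 higher. Grn then had a log2 fold change of -0.22, Man2b1 -0.16, Lgmn -0.16 and Ctsh -0.27, all called, with Ctsz, Lamp2 and Npc2 added and Naglu no longer called. In the second list 6 genes were then lower and 0 higher. As no share of all genes called is given for this fit, nothing is read from its counts.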

How the data were processed

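RNA-seq counts of 9 hippocampal libraries were analysed. The authors removed low-quality reads, mapped the rest to GRCm38 (mm10) with HISAT2 2.0.5, counted them per gene with featureCounts 1.5.0-p3 and deposited raw counts and FPKM for 54532 genes. CASAVA 1.8 is also named in the submitters' processing notes. Within a library the deposited FPKM equalled counts per length and total times a constant of 0.978 to 1.01, whose origin is not given in the sources used here. Whether counting used strand is likewise not given.

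Counts were tested with edgeR 4.0.16 in R 4.3.3 (filterByExpr with a minimum count of 10, TMM scaling, robust quasi-likelihood test, no covariate) over 19782 genes, with Benjamini-Hochberg adjustment. CPM are on TMM-scaled libraries, and standard errors and 95% intervals come from the F statistic. A call is an unadjusted p value below 0.05, the threshold of the study. The common biological coefficient of variation was 11.9%. Replicates of a group are separate mice and differed beyond counting noise (chi-square per gene 8.30 to 21.1). The scripts were tested on simulated data.

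Alternatives were DESeq2 1.42.0 without a filter, its size factors in edgeR, other filters, dispersions without the robust option, a block for replicate number, Y-linked genes as a covariate because sex was not recorded, limma 3.58.1 on log2-transformed FPKM (pseudocounts of 1 and, separately, 0.1), and leaving out each mouse. Leaving out both mice with high choroid plexus markers was added after seeing the data. The members and gene lists were chosen with earlier results of these data known. Values in every mouse are given for the progranulin axis, Apoe and the 8 members with the largest absolute log2 fold change, and for the other lysosomal genes the genes with the 5 smallest p values in each direction are named, except for items not reported here. Ppt1, Atp6v1h and Tfeb were added as examples after their values were seen. The lysosomal gene Slc66a1 was matched through its older symbol Pqlc2. Sites and UTRs were read from GENCODE M21.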

Additional observations from a re-analysis of the deposited data

Results flagged for a closer look

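Within each group the highest and the lowest mouse were compared with the others, and a value was taken as far away where its gap to the nearest mouse exceeded the 95% critical value of Dixon's test. Of 124 groups of values examined 6 were flagged, where chance alone gives about 1 in 20, or 6.2. Psap was low in Scr replicate 1 at 1468 CPM, with the other Scr mice between 1552 and 1559 CPM. Tmem106b was high in Ant-134 replicate 4 at 186.2 CPM, with the others at 172.8 to 176.3 CPM. Mfsd8 was high in the same mouse at 25.38 CPM, with the others at 19.9 to 21.28 CPM. Ctsb was high in Ant-134 replicate 1 at 533.8 CPM, with the others at 492.2 to 498.7 CPM. Naglu was high in Ant-134 replicate 3 at 15.34 CPM, with the others at 12.92 to 13.62 CPM. The summed choroid plexus markers were high in Ant-134 replicate 1 at 2619 CPM, with the others at 73.23 to 690.5 CPM.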

How the results depend on the processing

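The number of members called was within 1.5 times the reported 5 under 17 of 20 alternatives. It was 8 with no filter on low counts (7 lower, 1 higher) and ranged from 4 to 10 when each mouse was left out in turn. For the other lysosomal genes the count of 5 ranged from 3 to 10 over the same fits and lay within 1.5 times in 17 of 20 alternatives. Calls over all genes under the alternatives are not given beside these counts. The median log2 fold change of other lysosomal genes was -0.021 without both mice of high choroid plexus markers, and the cause was not tested. It was 0.0019 under DESeq2 without a filter, the single fit with a median above 0. The median log2 fold change of members lay between -0.033 and -0.0088 under all 20 alternatives. The share of members with a promoter match was 17.1% for the longer motif, which contains the shorter. Of 1040 values of single genes under alternatives 30 lost their call and 33 gained one. In 0 of them did a called gene change sign or an uncalled gene pass the threshold in the opposite direction. Uncalled genes did change sign without passing it. Apoe, for example, ranged from -0.09 to 0.01 and Lipa from -0.12 to 0.07. With the replicate number as a block, without Ant-134 replicate 5, which has no partner, 4 members and 6 other lysosomal genes were called. The numbers do not pair the mice, since correlations of same-numbered deviations were between -0.12 and 0.01. Depth was lowest for Gpnmb among the members and for Acp5 among the other lysosomal genes tested, at 103 and 17 counts in their shallowest libraries. With 5 and 4 mice, median standard errors were 0.058 (log2) for members, so differences of a few percent were not detectable.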
